A study of Mus musculus with 10 samples.

Results

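The loci described here are the autosomal microRNA genes of the mouse, taken from the RefSeq annotation of GRCm38.p6 (mm10 coordinates) as genes of the biotype miRNA whose symbol is Mir followed by a digit, or Mirlet7. They number 1090 of 47038 annotated autosomal genes, and 751 of them lie inside a protein-coding gene while 339 lie outside, 6 of these with part of the hairpin gene overlapping one. The readout is H3K4me3, trimethylated lysine 4 of histone H3, mapped by ChIP-seq in neurons of hippocampal area CA1. Peak lists were compared between 4 transgenic libraries, from mice carrying a CaMKIIδC transgene (a splice form of calcium/calmodulin-dependent kinase II delta), and 4 libraries from littermate controls labelled wild type. All 8 are labelled as male mice aged 3 months, and in all 8 the nuclei were sorted for the neuronal protein NeuN before 0.2 µg of chromatin was precipitated and read as single 50-bp ends. The promoter that drives the transgene is not given in the sources used here. The protocol text names the drug vorinostat, but no library used here carries a drug label. The labels do not tie the libraries to separate animals, and a p-value here then rests on a spread between libraries that may be technical. The 2 background samples, 1 of each genotype, were not analysed here.

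A microRNA is cut from a hairpin within a longer primary transcript, and the mature strand guides Argonaute proteins to messenger RNAs, which it recognises mainly through bases 2 to 8, the seed. Many hairpins lie in introns of protein-coding genes and are made from the transcript of the host gene, while others have transcripts of their own, often long noncoding RNAs that serve only as precursors. H3K4me3 collects at the start of transcribed or poised genes, so it can point to where a primary transcript begins, and a hairpin far from any start site need carry none of it. In neurons, miR-9, miR-124, miR-137, miR-132 and miR-129 are among the best known species, with roles in neuronal identity, dendrite growth and activity-dependent gene regulation.

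The sequences that carry the results are given first, as RefSeq has them on GRCm38.p6, 5′ to 3′ with the seed in capitals. They show which loci encode the same product. The 3 Mir9 genes encode identical mature strands from both arms:
miR-9-5p: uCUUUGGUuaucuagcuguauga
miR-9-3p: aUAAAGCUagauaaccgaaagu
miR-132 and miR-212 come from neighbouring hairpins and share a seed:
miR-132-3p: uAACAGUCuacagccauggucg
miR-212-3p: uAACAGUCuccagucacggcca
Mir125b-1 and Mir125b-2 encode the same strand, which shares its seed with miR-125a:
miR-125b-5p: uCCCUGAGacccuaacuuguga
miR-125a-5p: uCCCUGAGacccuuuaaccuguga
miR-137 and miR-129 are shown as the other products of broadly marked neuronal loci:
miR-137-3p: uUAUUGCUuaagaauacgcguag
miR-129-5p: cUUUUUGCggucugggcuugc
The let-7 strands below share a seed. let-7e and let-7i come from marked loci, let-7c from marked Mirlet7c-1 and also from Mirlet7c-2, which had no peak, and let-7g from a locus without any peak:
let-7c-5p: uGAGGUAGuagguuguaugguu
let-7e-5p: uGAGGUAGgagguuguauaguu
let-7i-5p: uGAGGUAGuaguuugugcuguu
let-7g-5p: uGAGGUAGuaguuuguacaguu
miR-344 stands for a family on chromosome 7 whose 13 genes differed in how many libraries marked them:
miR-344-3p: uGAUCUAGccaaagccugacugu
miR-344-5p: aGUCAGGCuccuggcuagauuccagg
Mature sequences were used here for 923 of the 1090 genes and for 188 of the 205 genes marked in every library. The remaining genes are missing from the seed counts below, which does not show that they lack a known mature sequence.

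A locus is called marked in a library when at least 1 bp of a peak falls within the hairpin gene or 2 kb on either side of it, and its value is the length in bp covered by peaks in that window. The median hairpin gene is 81 bp long, so a window is about 4 kb. Reads per peak were not listed, and the depth behind each value is therefore unknown. The lists held 52998 to 70908 autosomal peaks in the transgenic libraries and 49734 to 53781 in the control libraries, covering 43.6 to 46.7 Mb and 36.2 to 41.6 Mb of the autosomes. The libraries did not all match the male label: chromosome Y held 4 to 15 peaks in 5 lists (transgenic 1, 2 and 4, control 2 and 3) and 1024 to 1220 in the other 3. Chromosome X held 13023 to 31362 peaks in transgenic 1 and 4 and control 2 and 3, against 1145 to 1293 in the other 4. Because these sets cross the groups, only autosomes were used, and the main values are also given within the sets by chromosome X. Coding genes that mark neurons had peaks at a gene end in all 8 libraries: Rbfox3, which encodes NeuN, Camk2a, Snap25 and Slc17a7. Mog, Aif1 and Pecam1, of oligodendrocytes, microglia and endothelium, and Myh6 and Tnnt2, of cardiomyocytes, had none in any library. Gfap and Aqp4 of astrocytes had a peak in 1 and 2 libraries, while Mbp of oligodendrocytes and Cldn5 of endothelium were marked in all 8. Since a list pools many nuclei, a wider mark per nucleus and more nuclei carrying it cannot be told apart.

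MicroRNA loci were mostly either marked in every library or in none. In all 8 libraries 205 of the 1090 genes (18.8%) were marked, and in none 781 (71.7%), which left 104 with peaks in 1 to 7 libraries. Of the genes outside protein-coding genes 82 of 339 (24.2%) were marked in all 8, against 123 of 751 (16.4%) of those inside. Other classes differed in this order. It was the other way round for snoRNA genes with the same window, with 74 of 843 (8.78%) outside and 110 of 443 (24.8%) inside marked in all 8. It was the same as for microRNA genes in tRNA genes, with 232 of 358 (64.8%) outside and 15 of 33 (45.5%) inside. Long noncoding genes also had the larger share outside, 2655 of 9688 (27.405%) against 490 of 2720 (18.015%) inside. For snRNA genes the shares were near equal, 46 of 604 (7.6%) outside and 25 of 327 (7.6%) inside. For the better-covered end of protein-coding genes the share was 63.4% of 20661, and for tRNA genes 63.2% of 391. Windows of neighbouring hairpins overlap, and once such windows were joined the marked genes made up 67 separate loci outside and 117 inside. Within the 4 libraries with many chromosome X peaks 86 genes outside and 124 inside were marked in all 4, and within the other 4 libraries 84 and 132.

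**Figure D1:**
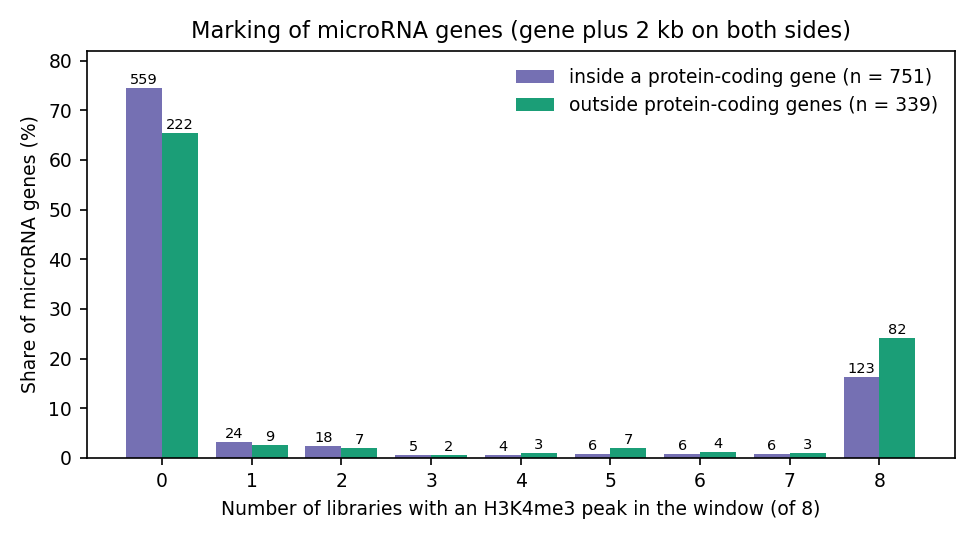
Share of microRNA genes (y axis, percent) by the number of libraries with an H3K4me3 peak in the window of gene plus 2 kb on both sides (x axis, 0 to 8), for genes inside (n = 751) and outside (n = 339) protein-coding genes, with the number of genes on each bar. Most genes sit at the ends of the axis, with 559 and 222 at 0 and 123 and 82 at 8.

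In single libraries, the share of microRNA genes with a peak averaged 22.9% ± 0.983 in transgenic and 22.1% ± 1.14 in control libraries (SD, n = 4 each). For genes inside protein-coding genes it was 19.8% ± 1.21 in transgenic and 19.6% ± 1.36 in control libraries. For genes outside, it ran from 28.6% to 31.0% in transgenic libraries and from 26.8% to 28.3% in control libraries, so that the groups did not overlap. The counts were 97, 105, 101 and 100 genes in transgenic and 91, 92, 96 and 95 in control libraries. Of these the Mir344 family, described below, supplied 12, 11, 10 and 9 in transgenic and 8, 9, 8 and 8 in control libraries. Without this family the groups overlap. The matching share over all genes in single libraries is not given here. The transgenic lists also covered more of the autosomes, as given above, and the part of that difference in this share was not tested. The median covered length of a marked window was between 1349 and 1457 bp in transgenic libraries and between 1316 and 1502 bp in control libraries.

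The 3 Mir9 genes were broadly marked in every library. Mir9-2 lies on chromosome 13 (chr13:83738814-83738885, plus strand) within the noncoding gene C130071C03Rik, 71735 bp from the nearest coding gene end, that of Mef2c. Peaks covered 3978, 3761, 3574 and 3834 bp of its window in transgenic libraries 1 to 4, against 3995, 3912, 3663 and 3633 bp in control libraries 1 to 4. The groups overlapped, and the log2 difference was -0.03 ± 0.08 (SE). The joined region of peaks that reaches the hairpin is the longest of all those touching a microRNA window, 22696 bp (chr13:83718528-83741223). It was covered over 21007, 21046, 20875 and 21530 bp in transgenic libraries and 20408, 20126, 20252 and 20606 bp in control libraries. The lengths do not overlap between the groups, but after centring for the longer lists of the transgenic libraries the log2 difference was -0.05 ± 0.02 (SE), with an adjusted p of 0.537 (limma, Benjamini-Hochberg over 57553 regions).

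Mir9-3, on chromosome 7 (chr7:79505264-79505353) within the noncoding gene Mir9-3hg, had 3864, 3665, 4090 and 4090 bp covered in transgenic libraries and 3763, 3889, 3578 and 4090 bp in control libraries. Peaks touching its window were on average the longest of any locus outside coding genes, 7473 to 9926 bp in transgenic libraries and 4091 to 9091 bp in the controls. Mir9-1, on chromosome 3 (chr3:88215598-88215686) within Gm3764, had 3820, 3759, 3553 and 3702 bp in transgenic libraries and 3501, 3746, 3349 and 3979 bp in control libraries. At all 3 genes the 2 groups overlapped and a peak overlapped the hairpin itself, by at least 1 bp, in all 8 libraries. All 3 genes found with the seed CUUUGGU of miR-9-5p, among those with a mature sequence used here, were thus marked in each list.

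A RefSeq start of each of these precursor genes was marked as well. The starts shown are the most upstream in the set of RefSeq starts used here. For Gm3764 an end of the gene lies farther upstream, 8925 bp from Mir9-1, while the start shown is 1116 bp from it. The starts differ in their content of CG, the dinucleotide that is methylated in mammals and is dense in CpG islands, which H3K4me3 often covers. The windows run from 250 bases before to 50 after each RefSeq start (GRCm38.p6), with each CG in capitals. CG is its own reverse complement, so each match counts for both strands and no match overlaps another.
Mir9-3hg, chr7:79499776-79500075, plus strand: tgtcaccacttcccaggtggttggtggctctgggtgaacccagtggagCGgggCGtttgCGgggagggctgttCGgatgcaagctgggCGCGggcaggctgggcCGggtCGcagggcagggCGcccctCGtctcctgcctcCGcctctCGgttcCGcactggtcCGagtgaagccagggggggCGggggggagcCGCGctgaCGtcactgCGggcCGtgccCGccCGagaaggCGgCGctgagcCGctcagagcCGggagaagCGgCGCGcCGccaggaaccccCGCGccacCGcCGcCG
C130071C03Rik, chr13:83721131-83721430, plus strand: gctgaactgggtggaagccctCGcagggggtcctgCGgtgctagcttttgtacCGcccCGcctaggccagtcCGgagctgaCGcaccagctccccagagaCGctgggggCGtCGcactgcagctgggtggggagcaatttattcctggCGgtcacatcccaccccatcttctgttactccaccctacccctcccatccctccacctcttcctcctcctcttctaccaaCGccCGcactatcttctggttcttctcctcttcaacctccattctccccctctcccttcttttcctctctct
Gm3764, chr3:88214232-88214531, plus strand: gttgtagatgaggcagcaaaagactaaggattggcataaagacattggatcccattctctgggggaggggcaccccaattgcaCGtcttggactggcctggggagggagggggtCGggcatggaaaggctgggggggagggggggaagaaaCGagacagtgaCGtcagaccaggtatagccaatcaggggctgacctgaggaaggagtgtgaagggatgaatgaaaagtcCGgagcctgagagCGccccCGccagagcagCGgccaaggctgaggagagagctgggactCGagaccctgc
The window of Mir9-3hg holds 35 CG, a number reached by 6.95% of the 32851 RefSeq promoter windows of the same length, whose median is 7. Those of C130071C03Rik and Gm3764 hold 12 and 9, reached by 39.6% and 45.8% of all windows. Peaks covered all 300 bases at C130071C03Rik and Gm3764 in every library, while at Mir9-3hg they covered 135, 220, 300 and 300 bases in transgenic and 236, 186, 128 and 300 bases in control libraries. RefSeq lists further starts. A later start of Mir9-3hg (chr7:79515185-79515484), with 28 CG, was marked in 6 libraries, over 40, 4, 0 and 300 bases in transgenic and 245, 0, 171 and 213 bases in control libraries. The later starts of C130071C03Rik, with 4 and 7 CG, were covered over all 300 bases in every library.

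The 3 Mir124a genes, which encode the most neuron-specific of these microRNAs, were also marked in all 8 libraries. Mir124a-1 (chr14:64590657-64590741, in Mir124a-1hg) had its whole window of 4085 bp under peaks in every library, and the peaks reaching it were 6064, 6610, 6882 and 6543 bp long in transgenic and 6373, 6991, 6299 and 6681 bp long in control libraries. Mir124a-3 (chr2:180894040-180894107) had 3310, 3857, 3499 and 3692 bp covered in transgenic libraries and 3015, 3693, 3613 and 3818 bp in control libraries. Mir124a-2 (chr3:17795662-17795770, in Mir124-2hg) was the narrowest of the 3, with 3078, 2695, 3119 and 3177 bp in transgenic libraries and 2494, 2795, 2573 and 2855 bp in control libraries. Its log2 difference was 0.14 ± 0.07 (SE), the adjusted p was 0.866 (limma), and the groups overlapped.

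**Figure D2:**
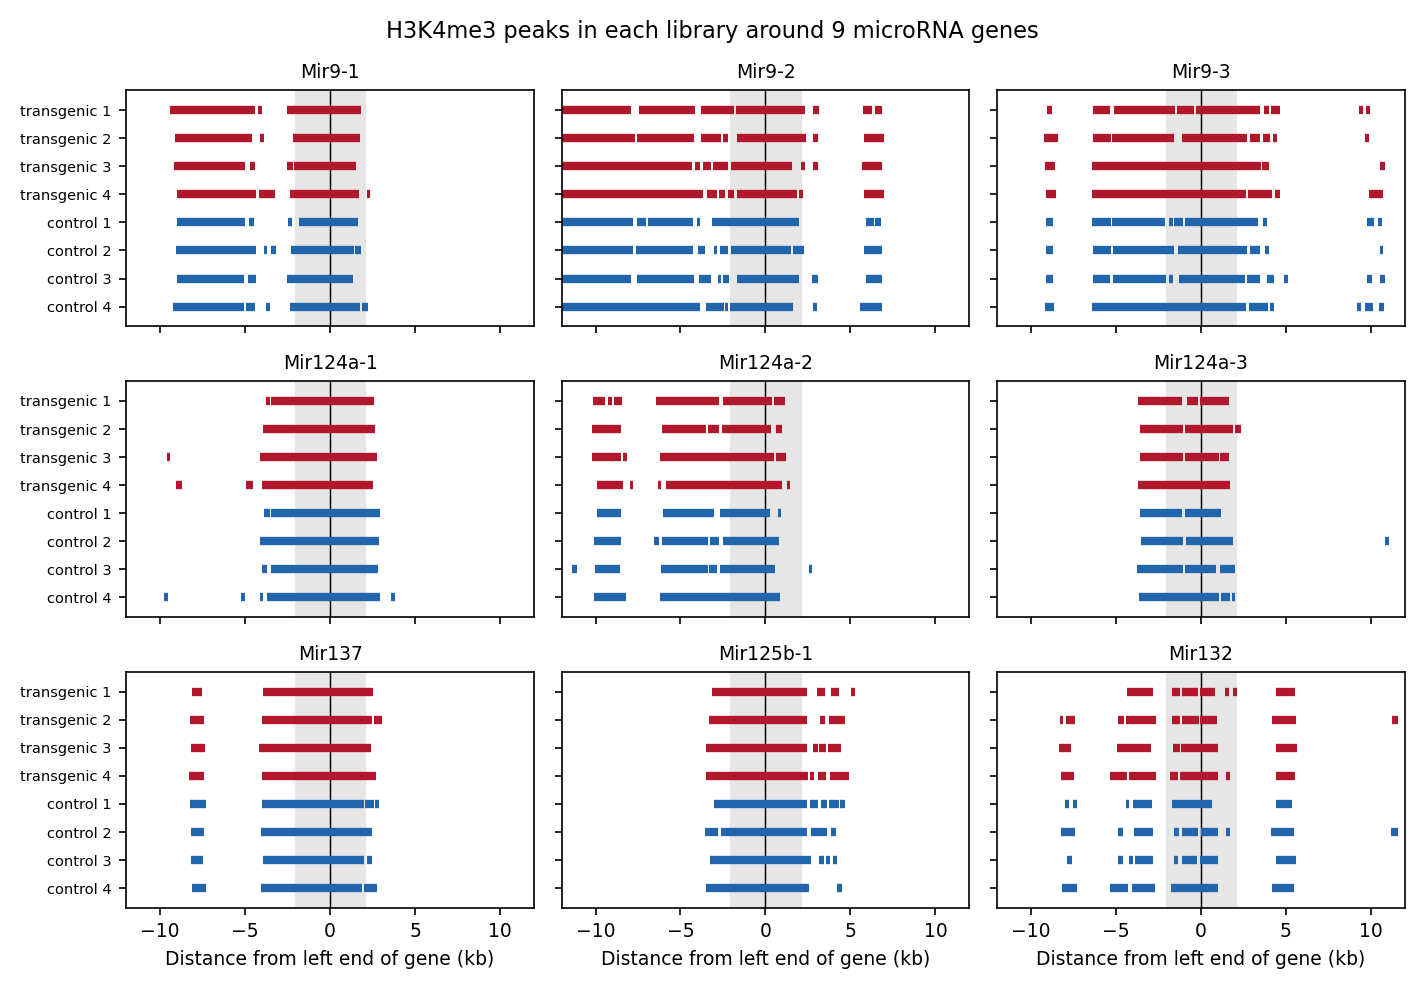
H3K4me3 peaks (bars) in each library around 9 microRNA genes, by distance in kb from the end of the gene with the lower coordinate, with the 4 transgenic libraries above the 4 control libraries and the window of gene plus 2 kb in grey. At each gene a peak overlaps the hairpin, which starts at the line at 0, in all 8 libraries, at Mir132 in control 2 only from 21 bp onward.

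Mir137, Mir125b-1, Mir129-2 and the Mir132 and Mir212 pair were also broadly marked, as was Mir125b-2, given below. Mir137 (chr3:118433857-118433929), linked in human genetics to schizophrenia, lies 128180 bp from the nearest coding gene end. It had 4073 bp covered in each transgenic library, against 3997, 4073, 3970 and 3949 bp in control libraries, and the groups met at 4073 bp, the whole window. Mir125b-1 (chr9:41581926-41582002, in Mir100hg) had its whole window of 4077 bp covered in all 8 libraries. Mir129-2 (chr2:94241364-94241453, in Mir670hg) had 2912, 2876, 3081 and 3334 bp in transgenic libraries and 3002, 3152, 3042 and 3508 bp in control libraries. Mir132 (chr11:75173682-75173747), whose transcript is known to follow neuronal activity through CREB, had 2686, 2461, 2584 and 2899 bp in transgenic libraries and 2365, 2470, 2179 and 2727 bp in control libraries. Mir212 shares its peaks and had 2461 to 2899 bp in transgenic libraries and 2179 to 2727 bp in the controls. Each of these comparisons overlapped between the groups.

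Peak length could run past the window, and at several loci the joined region was longer than it. Of the 295 regions that touch a microRNA window 28 were longer than 4 kb, among them those of Mir125b-1 (8473 bp, chr9:41578385-41586857), Mir129-2 (7584 bp, chr2:94240169-94247752) and Mir137 (7224 bp, chr3:118429698-118436921). The fold enrichment at the highest peak, which is the authors' own value and ranks peaks only within a list, was 39.0 to 44.6 at Mir124a-1 in transgenic lists and 39.2 to 49.8 in control lists. At Mir9-2, with its longer region, it was 14.7 to 18.4 in transgenic and 14.7 to 17.1 in control lists.

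Of 38 autosomal genes in a list of neuron-enriched microRNAs, 14 were marked in all 8 libraries (36.8%), 4 in some and 20 in none, beside 18.8% marked in all 8 over all microRNA genes. Within single families the copies differed. Mir129-2 was marked and Mir129-1 in no library, although both encode miR-129-5p. Mir7-2, with 631, 593, 1188 and 213 bp in transgenic and 652, 679, 1139 and 1088 bp in control libraries, was marked in each list, while Mir7-1, in the RNA-binding protein gene Hnrnpk, was not marked in any, although both encode miR-7a-5p. Mir125b-1 and Mir125b-2 were both marked, the second over 2974, 2913, 2943 and 3334 bp in transgenic and 3084, 3215, 3000 and 3168 bp in control libraries.

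Of the 20 neuron-enriched genes without a peak 11 sit inside a coding gene, and for 10 of these an end of the host was marked in all 8 libraries. Mir128-1 lies in R3hdm1, 99079 bp from a host end that had a mean of 2830 bp covered and a peak in all 8 libraries. The other copy, Mir128-2, in Arpp21, lies 117577 bp from its marked host end and had a peak in 2 libraries. Mir218-1 and Mir218-2 lie 242651 bp and 495360 bp from the marked ends of Slit2 and Slit3, which encode axon guidance cues, and Mir153 lies 765122 bp from that of Ptprn2. Mir103-1 and Mir103-2 lie in Pank3 and Pank2, enzymes of coenzyme A synthesis, whose ends were marked in all 8, and Mir107 lies in Pank1, whose end was marked in none. Mir29a, Mir29b-1, Mir29b-2, Mir29c, Mir34a, Mir129-1, Mir138-1, Mir181a-1 and Mir181b-1, the other 9, lie outside coding genes.

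Of the 13 let-7 genes, whose products accumulate in differentiated cells, 3 had a peak in all 8 libraries (23.1%) and 10 in none (76.9%), near the 18.8% and 71.7% of all microRNA genes. Mirlet7i (chr10:122985640-122985724) had 2293, 2676, 3011 and 3080 bp covered in transgenic libraries and 2055, 2417, 2466 and 2987 bp in control libraries. Mirlet7e, in Spaca6 beside Mir99b and Mir125a, had 2216, 2360, 2109 and 2263 bp in transgenic and 2298, 2209, 2176 and 2239 bp in control libraries. Mirlet7c-1, which follows Mir99a on chromosome 16, had 1219, 1192, 661 and 1003 bp in transgenic and 824, 1078, 939 and 495 bp in control libraries. Among genes with a mature sequence used here, 3 of 11 with the seed GAGGUAG (let-7 and Mir1961) and 3 of 5 with CCCUGAG were marked in all 8. The 3 with CCCUGAG are the miR-125 genes, and the others, Mir6367 and Mir6394, had no peak in any library. For AACAGUC (miR-132 and miR-212) the count was 2 of 2. For ACCCGUA (miR-99 and miR-100) and GGAAGAC (miR-7) it was 2 of 3 each. The let-7c, miR-99a and miR-125b-2 genes lie together, as do the miR-99b, let-7e and miR-125a genes, so the members of a seed group are not independent in position.

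**Figure D3:**
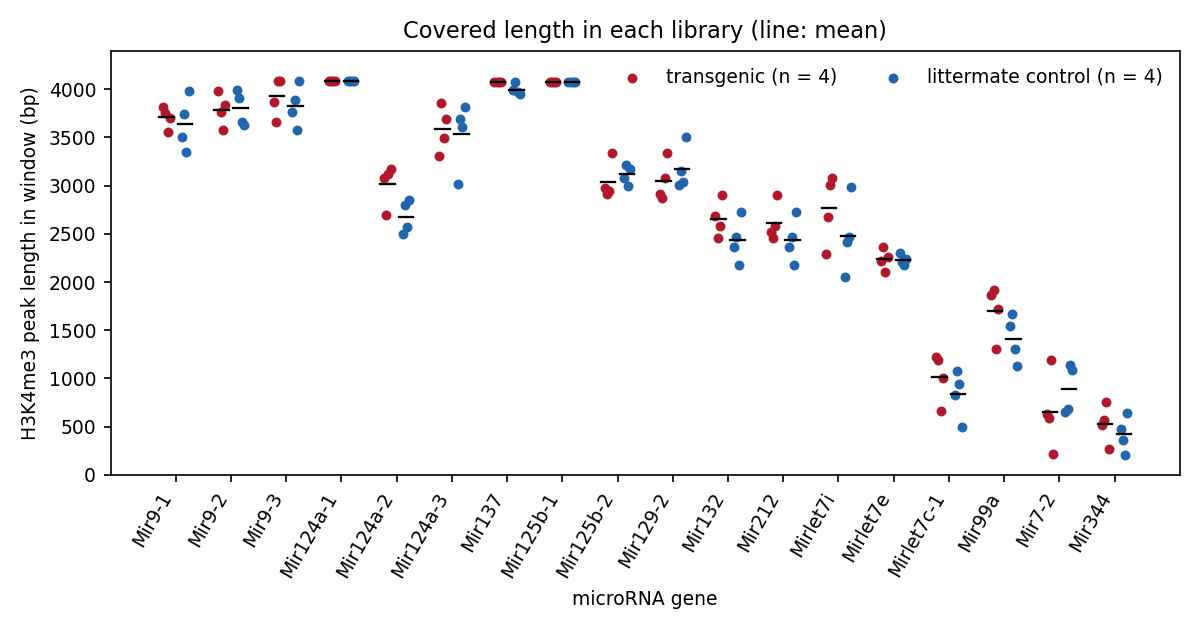
Covered length in the window (y axis, bp) at 18 microRNA genes marked in all 8 libraries, with a point for each transgenic library (left of each pair, n = 4) and each littermate control library (right, n = 4) and a line at the mean. Mir124a-1 and Mir125b-1 sit at the full window in all 8, while Mir7-2 ranges from 213 to 1188 bp and Mirlet7c-1 from 495 to 1219 bp.

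The lists of other tissues are short, and several share few loci, so their counts stand beside the 71.7% of all microRNA genes that had no peak in any library. None of the 5 genes of endothelium and smooth muscle (Mir126a, Mir126b, Mir143, Mir145a, Mir145b), none of the 12 embryonic stem cell and germline genes and none of the 3 of the sensory cluster had a peak in any library, but these lie in 3, 2 and 1 separate loci. Of 9 heart and skeletal muscle genes, 7 had none, and Mir1a-1 and Mir1a-2 had a peak in 1 library each. Of 12 epithelial and liver genes, 10 had none, Mir375 was marked in 7 libraries and Mir203 in all 8. Of the 5 microglia and blood genes 4 had no peak in any library. The unmarked shares of the last 3 lists (77.8%, 83.3% and 80.0%) are near that of all microRNA genes. Of the oligodendrocyte genes Mir219a-1, 303 bp from an end of Ring1, was marked in all 8, Mir219a-2 in 6, Mir338 in 1 and Mir3099 in none. At Mir219a-1 a mark of the microRNA gene and one of the neighbouring coding gene cannot be told apart.

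In the Mir17 cluster on chromosome 14, known as a driver of proliferation, all 6 genes were marked in all 8 libraries through peaks beside the hairpins. Mir17 had 467, 357, 440 and 889 bp in transgenic and 344, 441, 444 and 803 bp in control libraries, and none of the 6 hairpins lay in a peak in any library. The related Mir106b, Mir93 and Mir25, inside Mcm7, had no peak in their windows.

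No gene in the large microRNA clusters described here was marked in all 8 libraries. The 71 genes inside Sfmbt2 (chr2:10466663-10518279), whose windows join into a single locus, had no peak in any library. An end of their host was marked in all 8 over a mean of 159 bp. The imprinted cluster of chromosome 12 (chr12:109563692-109743795) is known to be expressed from the maternal chromosome in brain as part of a long transcript. Of its 47 genes, in 8 separate loci, none was marked in all 8 libraries, 33 were marked in none and 14 in some. The unmarked share was 70.2%, near the 71.7% of all microRNA genes, while 104 of all 1090 were marked in some. Within the cluster Mir337 reached the most libraries, with 265, 0, 483 and 367 bp in transgenic and 0, 0, 200 and 200 bp in control libraries. Peaks at the other 13 were present in 1 to 4 libraries.

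The share of marked genes was smaller with more distance from coding gene ends, inside and outside coding genes. Among genes inside a coding gene, 85 of 171 (49.7%) within 2 kb of a coding gene end were marked in all 8, 31 of 254 (12.2%) at 2 to 10 kb, 6 of 186 (3.23%) at 10 to 50 kb and 1 of 140 (0.714%) beyond. Among those outside the shares were 31 of 56 (55.4%), 13 of 50 (26.0%), 20 of 82 (24.4%) and 18 of 151 (11.9%). Genes of a cluster, such as the 71 inside Sfmbt2, count singly here. Beyond 50 kb the 140 inside lie in 67 separate loci and the 151 outside in 104. The single gene beyond 50 kb inside a host was Mir1904, in the phosphodiesterase gene Pde4d, 52081 bp from a coding gene end. The 18 outside include Mir9-2, Mir124a-1, Mir124a-2, Mir129-2, Mir137, Mir125b-1, Mir125b-2, Mir99a, Mirlet7c-1 and 6 genes of the Mir344 family. Distances are to either end of a gene, since the gene table gives no strand, and starts within a gene are not counted among them.

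**Figure D4:**
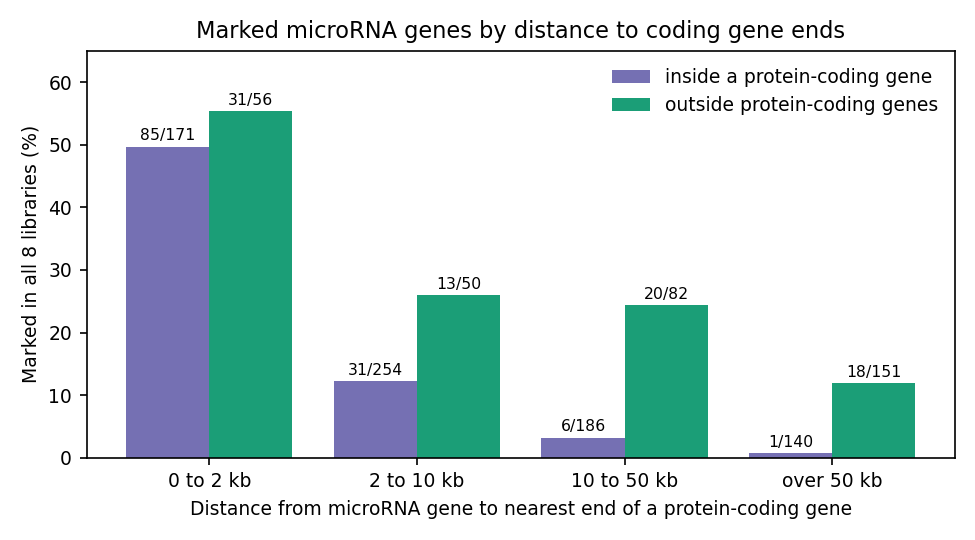
Share of microRNA genes marked in all 8 libraries (y axis, percent) by distance to the nearest end of a protein-coding gene (x axis), inside and outside coding genes, with marked over total genes on each bar. Beyond 50 kb the share was 0.714% inside (1 of 140) and 11.9% outside (18 of 151). The 140 genes lie in 67 separate loci and the 151 in 104.

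Host genes were mostly marked, whether or not the hairpin was. For 630 of the 751 genes inside a host (83.9%), the better-covered end of the host was marked in all 8 libraries, and this held for 117 of the 123 marked genes (95.1%) and for 466 of the 559 unmarked ones (83.4%). The median distance to that end, where marked, was 1517 bp for the marked genes and 41069 bp for the unmarked. Since the window reaches 2 kb from the hairpin, a short distance to a marked end places a peak in it by construction. Of the 123 marked genes inside coding genes 85 had a coding gene end in the window, 3 only an end of a long noncoding gene and 35 neither. Of the 82 outside, the counts were 31, 12 and 39, so that 39 genes in 34 separate loci were marked with no annotated end of a coding or long noncoding gene within 2 kb. A RefSeq start within a gene lay in the window of 7 of the 35 and 3 of the 39, Mir9-1 among the last. The hairpin itself was overlapped by a peak in all 8 libraries at 63 of 123 genes inside and 43 of 82 outside.

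Peaks lay more often on the upstream side of the hairpin. Where the strand was known, the median covered length was 952 bp upstream and 535 bp downstream inside coding genes (n = 104), with more upstream at 68 and more downstream at 36. Outside (n = 71) it was 834 bp and 483 bp, with more upstream at 45 and more downstream at 25. These are medians over genes of the mean over 8 libraries, and neighbouring genes share peaks.

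Inside coding genes, peaks touching the window were longest at loci in hosts of varied function. Mir1903, 650 bp from an end of Nrp1, a semaphorin receptor, had its whole window of 4080 bp covered in all 8 libraries. Mir6402, in the neuronal RNA-binding protein gene Elavl2, 26745 bp from its end but 1215 bp from a RefSeq start within it, had 2368, 3036, 3252 and 2556 bp in transgenic and 2886, 2798, 2863 and 3516 bp in control libraries, without the hairpin lying in a peak. Mir6935 in Actg1 (cytoplasmic actin), Mir5130 in Kctd12 (an auxiliary subunit of GABA-B receptors) and Mir1894 in Ppp1r10 (a phosphatase 1 regulator) lie 1377 bp or less from an end of their hosts. Mir7687 in Gse1, Mir3082 in Jmjd8 and Stub1, and Mir125a in Spaca6 were also among the 10 widest, and over the 8 loci named here mean peak length ran from 4075 to 7324 bp over the libraries.

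No microRNA window differed between transgenic and control libraries past the threshold. Covered length was compared as log2(bp + 100 bp), centred for each library, in a fit over the 20059 windows marked in 4 or more libraries, 244 of them microRNA windows (145 inside, 99 outside). At an adjusted p of 0.05 (limma, Benjamini-Hochberg over all windows) 0 of 244 were called, beside 0.00499% of all windows (1 of 20059), and the smallest adjusted p of a microRNA was 0.505. At an unadjusted p under 0.05, 4 were higher and 3 lower in transgenic libraries (1.64% and 1.23%), against 4.52% and 1.3% of all windows. These counts turn with the scaling, with 8 higher and 1 lower without centring and 2 higher and 7 lower with quantile normalization. The limma fit with ordinary variances called 0 microRNA windows and 22 of all windows. Of the 244, 127 lay above 0 and 117 below, with a median log2 difference of 0.004, against -0.0006 over all windows. That split follows the scaling: 148 of 244 (60.7%) lay above 0 without centring and 96 (39.3%) with quantile normalization, beside 58.5% and 37.7% of all windows. The 95% interval stayed within 1.5-fold for 170 of 244 (69.7%) and for 73.7% of all windows, and at the other 74 microRNA windows it reached further. The 170 include windows covered in full in every library, such as that of Mir124a-1, where only the centring can give a difference.

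Outside coding genes 64 of 99 tested windows (64.6%) lay above 0 (median log2 difference 0.04), and inside 63 of 145 (43.4%, median -0.01), beside 49.7% of all windows. Neighbouring genes that share peaks are counted separately. The 64 include all 6 genes of the Mir17 cluster and 9 of the 10 tested Mir344 genes. Differences on this scale understate those of thinly covered windows. With the chromosome X set as a term in the limma fit 0 microRNA windows were called, and within the sets, 2 against 2 libraries, 0 of 250 microRNA windows were called in either.

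**Figure D5:**
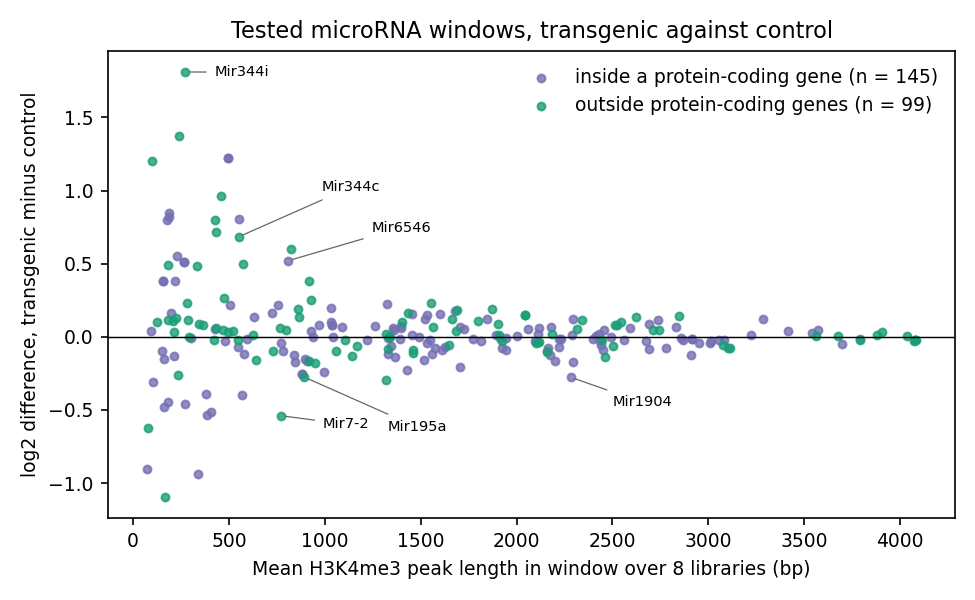
Log2 difference in covered length, transgenic minus control (y axis), against the mean covered length over 8 libraries in bp (x axis), for 145 tested microRNA windows inside and 99 outside coding genes. Differences narrow toward 0 as covered length grows, Mir344i has the highest value (1.81), and no window passed the threshold. Covered length cannot exceed the window, so windows covered in full in every library differ only through the centring.

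The windows with the smallest p among those higher in transgenic libraries were Mir344i, Mir6546, Mir1938, Mir5627 and Mir7647, and none was called. Mir344i (chr7:62085223-62085310) had 788, 284, 217 and 550 bp in transgenic libraries, against 340, 0, 0 and 0 bp in control libraries. It had peaks in 4 transgenic libraries and 1 control library, which falls within the transgenic range, and the log2 difference was 1.81 ± 0.65 (SE) with an adjusted p of 0.710 (limma). Mir6546, in the immunoglobulin receptor gene Fcgr3, had 753, 850, 1098 and 1182 bp in transgenic and 412, 841, 587 and 742 bp in control libraries (log2 difference 0.52 ± 0.19, SE), and the groups overlapped. Mir1938, 378 bp from an end of Ifrd1, had 2777, 2996, 2902 and 2814 bp in transgenic and 2573, 2523, 2620 and 2707 bp in control libraries. The groups did not overlap, by 70 bp, and the log2 difference of 0.12 ± 0.05 (SE) had an adjusted p of 0.817 (limma). Mir5627, 245 bp from Dnajb9 (a chaperone of the endoplasmic reticulum), had a log2 difference of 0.18, and Mir7647, in Diablo (a mitochondrial factor in apoptosis), 0.15.

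Among those lower in transgenic libraries, the smallest p belonged to Mir1904, Mir7000, Mir149, Mir195a and Mir6913. Mir1904 (chr13:109903809-109903888), in Pde4d, had 1743, 2198, 2163 and 2192 bp in transgenic libraries, against 2663, 2618, 2171 and 2525 bp in control libraries. Control 3 lay among the transgenic values, and the log2 difference was -0.28 ± 0.08 (SE) with an adjusted p of 0.505 (limma). Mir7000, in Mapk8ip1 (a scaffold of JNK signalling), averaged 2168 ± 220 bp over the transgenic libraries and 2421 ± 170 bp over the controls (SD, n = 4 each), with a log2 difference of -0.18. Mir149 in Gpc1 (-0.12), Mir195a (-0.27) and Mir6913 in Dohh (-0.16) followed in log2 difference, all with overlapping groups. Without control 4 the difference of Mir195a was -0.14, and without control 3 that of Mir6913 was -0.08.

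Regions that touch microRNA windows were not called either. Of the 57553 joined regions found in 2 or more libraries 10 were called (0.0174%), and 0 of 295 touching a microRNA window. The smallest adjusted p was 0.277 (limma) for the region over Mir129-2 (chr2:94240169-94247752), with 6759, 6609, 7012 and 7006 bp covered in transgenic and 6776, 6889, 7041 and 7221 bp in control libraries. Its log2 difference was -0.13 ± 0.03 (SE). The region over Mir124a-1 (chr14:64586533-64593601), with 6302, 6610, 6882 and 6543 bp in transgenic and 6772, 6991, 6623 and 6887 bp in control libraries, had a log2 difference of -0.16 ± 0.04 (SE) and an adjusted p of 0.298 (limma). In both regions the groups overlapped. At an unadjusted p under 0.05, 2 regions were higher and 22 lower in transgenic libraries (0.678% and 7.46%), against 6.77% and 2.52% of all regions. These counts turn with the scaling: without centring 9 were higher and 1 lower. After centring, 73 of the 295 (24.7%) lay above 0 with a median log2 difference of -0.08, and without it 175 (59.3%) with a median of 0.02. Leaving out the centring moved the median of all regions by 0.107. It moves every region alike, so the microRNA regions stand at -0.11 relative to that median on both scales by construction. With equal numbers of top peaks the median was -0.066 for the microRNA regions and -0.015 for all regions.

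No microRNA locus had a peak in all 4 libraries of 1 group and in none of the other. Of the 104 genes marked in 1 to 7 libraries 49 had peaks in more transgenic than control libraries, 24 in more control libraries and 31 in equal numbers. A peak in a single library only was found at 33. Neighbouring genes share peaks and are counted separately here. For example Mir541, Mir409, Mir412, Mir369 and Mir410 each had 200 bp in transgenic 2 and no peak in any other library. The higher number of autosomal peaks in transgenic lists stands beside that count, and its part in it was not tested.

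The Mir344 family lies on chromosome 7, with its 6 genes marked in all 8 libraries between 365918 and 571568 bp from the nearest coding gene end, and was chosen for description after its values were seen. The nearest coding gene on 1 side, Ndn, is paternally expressed and belongs to the region that corresponds to the human Prader-Willi locus. Of the 13 genes 6 were marked in all 8 libraries and the other 7 in some. Summed over the 13 windows, peaks covered 10087, 7264, 5948 and 5779 bp in transgenic libraries, against 3942, 6271, 4906 and 4766 bp in control libraries, with 12, 11, 10 and 9 genes marked in transgenic and 8, 9, 8 and 8 in control libraries. Control 2 lay within the transgenic range. The windows of Mir344d-1 and Mir344d-2 overlap, as do those of the neighbours Mir344e, Mir344h-1 and Mir344h-2. A peak shared by such windows enters these sums and counts more than once. Mir344g, at the RefSeq start of the noncoding gene A330076H08Rik, was the best covered, with 2201, 1967, 2099 and 1750 bp in transgenic and 1380, 1866, 1496 and 2214 bp in control libraries, and the groups overlapped. Mir344b had 1267, 1266, 709 and 819 bp in transgenic and 479, 1029, 525 and 507 bp in control libraries, with a log2 difference of 0.60 ± 0.28 (SE) and an adjusted p of 0.889 (limma). Mir344e, Mir344h-1 and Mir344h-2 had peaks in 3, 2 and 1 transgenic libraries and in no control library. In transgenic 3 the overlapping windows of Mir344e and Mir344h-1 both had 216 bp. Of the 10 genes that could be tested 9 lay above 0 and 1, Mir344d-1, below (log2 difference -0.26), and none was called. Among genes with a mature sequence used here, the seed GUCAGGC of miR-344-5p is carried by 7, of which 5 were marked in all 8.

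Among loci marked in all 8 libraries the median coefficient of variation of covered length over the 8 was 9.88% inside and 11.3% outside coding genes. The widest belonged to windows with under 1000 bp covered on average: Mir344c (80.7%), Mir3101 in Rab4b (66.3%), Mir7653 in Tlcd1 (51.6%), Mir1966 in Ripor1 (50.2%) and Mir6400 in Decr1 (47.9%). Mir344c ranged from 208 to 1464 bp in transgenic and from 200 to 810 bp in the controls, and Mir7653 from 259 to 1720 bp in transgenic libraries and from 603 to 1349 bp in the controls.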

How the data were processed

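H3K4me3 was mapped in 8 libraries, 4 transgenic and 4 control, grouped by their titles. For each library the authors deposited a list of peaks without a header, laid out as MACS2 does. Each peak has a deposited position, score, fold enrichment, and p-value and q-value written as −log10, all the authors' own values. The submitters' processing notes name Bowtie2 2.0.2, MACS2, SAMtools 1.3.1, DiffBind, FastQC 0.11.5, limma and deepTools 3.0.1, and the build mm10. What each tool did, and which background each list used, is not given in the sources used here. Because depth and precipitation quality set how many peaks are called and how wide, lengths may differ between lists with no difference in the mark. The letters in the sample descriptions and in the list names differ, while the groups agree.

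Peaks were merged within a library and the covered length counted in each window of hairpin gene plus 2 kb. Other genes were measured 2 kb to each side of their better-covered end. Covered length, as log2(bp + 100 bp), was centred on each library's median over coding gene windows marked in all 8 (for joined regions, over all regions marked in all 8). It was tested with limma 3.58.1 in R 4.3.3 (moderated, trended, robust variance), adjusted by Benjamini-Hochberg over all windows or regions. The fit was tested on simulated data. Windows stop at their border, so length beyond went unmeasured there. The annotation used here gives no exons, so a locus inside a gene is not placed in an exon or intron.

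The loci, the lists of microRNAs and the tests were chosen with earlier results of these data known. Of 160 listed symbols 156 matched autosomal members. Named loci are list members, the 10 with the longest peaks inside and outside coding genes, the 5 smallest p in each direction and the 5 most variable among those marked in all 8; 2 of these loci are not reported here. Alternatives covered the window, the pseudocount, the minimum number of libraries, scaling, peak strength, equal peak numbers, left-out libraries, the replicate number as a block and, added after seeing the data, the sets by chromosome X and Y peaks.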

Additional observations from a re-analysis of the deposited data

Results flagged for a closer look

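In 102 groups of 4 libraries, over 51 loci, 10 values stood apart from the other 3 of their group by a gap above Dixon's 95% limit, which chance passes in about 1 of 20 groups. In transgenic libraries these were Mir1904 in replicate 1 (1743 bp, others 2163, 2192 and 2198), Mir6400 in replicate 3 (142 bp, others 57, 59 and 70) and Mir125b-2 in replicate 4 (3334 bp, others 2913, 2943 and 2974).

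The other 7 were in control libraries. In replicate 4 these were Mir6402 (3516 bp, others 2798, 2863 and 2886), Mir6935 (3241 bp, others 2946, 2967 and 2972) and Mir195a (1394 bp, others 788, 882 and 887). In replicate 3 they were Mir6913 (1859 bp, others 1486, 1511 and 1525) and Mir344c (810 bp, others 200, 200 and 302). In replicate 1 Mir344i had 340 bp where the others had 0, and Mir20a had 344 bp, below the others at 436, 441 and 444.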

How the results depend on the processing

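The number of genes marked in all 8 libraries depends on the window and the length asked for. Inside coding genes it was 202 with 5 kb on both sides and 63 for the hairpin gene alone, and outside it was 43 for the hairpin gene alone and 50 where at least 1000 bp had to be covered, against 123 and 82 as reported. The other alternatives left both counts within 1.5 times, and leaving out 1 library at a time gave 123 to 125 inside and 82 to 83 outside. In 25 alternatives of the window fit and 13 of the region fit 0 microRNA windows and regions were called, with smallest adjusted p-values from 0.436 to 1.00 and from 0.194 to 0.625 (limma). Of the 10 loci named for their p, 6 kept their sign throughout. The signs that turned were those of Mir6546 (-0.02), Mir1938 (-0.054), Mir5627 (-0.065) and Mir7000 (0.241) for the hairpin gene alone, and Mir1938 (-0.019) with 1 kb on both sides, in log2 units. The cause was not tested.

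Replicate numbers are shared between the groups. Same-numbered libraries deviated together with correlations of 0.02, 0.01, -0.06 and 0.28, the last being the highest among all pairs across the groups. With so few libraries these values cannot tell whether same-numbered libraries were paired. With the replicate block 0 microRNA windows and 0 regions were called, as without it, with smallest adjusted p-values of 0.535 and 0.502, and over all windows and regions the count was 0 in both.

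The 10 regions called of all 57553 went to 0 without any 1 transgenic library or without control 1, and to 17 without control 3. Peak lists give no depth, so a locus without a peak is not shown to lack H3K4me3.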
